A study of Mus musculus with 26 samples.

Results

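Mouse embryonic fibroblasts (MEFs) labelled *Dnmt3a* KO were compared with WT MEFs across all genes by RNA-seq, once in cells kept in DMSO and once in cells treated with GSK126. The comparison covers every gene symbol that reached 1 FPKM in at least 1 of the 4 libraries, which were 14223 of the 52454 symbols in the deposited expression table. FPKM is a count of sequenced fragments scaled to transcript length and to library depth. The 4 libraries belong to a series of 26 samples on the DNA methyltransferases DNMT3A and DNMT3B in mouse MEFs, in MEFs derived from ES cells and in embryonic tissues.

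All 4 MEF cultures were labelled as male, strain C57BL6, taken from E14.5 embryos and used at passage 1. WT and KO embryos came from crosses of mice heterozygous for the germline allele B6;129S4-Dnmt3a<tm1Enl>, a stock whose name carries both B6 and 129S4. The cells received DMSO, the solvent, or GSK126, an inhibitor of the histone methyltransferase EZH2, at 10 µM for 2 days. Each condition is 1 library made from polyadenylated RNA, so the values are given as a description, with no test between genotypes and no p-value. The sources used here do not say whether the DMSO and GSK126 cells of a genotype came from the same embryo, or whether WT and KO embryos were littermates. The DMSO pair and the GSK126 pair share no library, but they are not replicates of each other, and genotype cannot be told apart from embryo or culture in either of them.

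DNMT3A is an enzyme that places methyl groups on the cytosine of CG dinucleotides that carried none before, a step called de novo DNA methylation, which occurs mostly after implantation. At the promoters of developmental genes, DNA methylation and the Polycomb mark H3K27me3, which EZH2 writes, are 2 ways in which a gene can be held silent. MEFs are grown from minced embryos, so the cultures are mostly fibroblasts but keep a memory of body position in their Hox and other transcription factor genes, and they can carry other cells of the embryo.

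The depth recovered from the steps between low FPKM values was about 18 M (mega) counted reads in the WT DMSO library, 25.6 M in the KO DMSO library, 19.4 M in the WT GSK126 library and 21.1 M in the KO GSK126 library. With 97.0% to 97.8% of low values within 0.1 of a whole read, 1 FPKM on a transcript of 2000 bases stood for 32.4 to 46.1 reads. Fibroblast genes were high in every library, *Col1a1* lying between 2504 and 4281 FPKM and *Vim* between 4939 and 5598 FPKM. *Xist*, the RNA of the inactive X chromosome in female cells, was at most 0.00222 FPKM, and the 1570 rows of Y-linked genes were listed at 0 in every library and so say nothing on sex. PRC2, the complex of EZH2, had 0 of 12 subunit genes called in either direction by the rule given below.

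The targeted gene went against its label at the level of whole-gene RNA. *Dnmt3a* stood at 26.1 FPKM in WT and 85.7 FPKM in KO-labelled MEFs with DMSO, and at 19.3 and 84.5 FPKM under GSK126. Both KO-labelled libraries thus lay above both WT libraries, with log2 ratios of 1.68 and 2.07. With a single value for the gene as a whole, transcription of the exons that the allele removes cannot be read from the table, and the libraries are called "labelled *Dnmt3a* KO" or "KO-labelled" throughout for this reason. *Dnmt1*, which copies methylation at replication, was at 23.5 and 18.5 FPKM with DMSO and at 18.5 and 12.3 FPKM under GSK126, WT first. Dnmt3b, the other de novo enzyme, stayed under 1 FPKM in all 4 libraries, and *Dnmt3l*, their catalytically inactive partner, reached at most 0.535 FPKM. Of the 20 genes in scope within 1 Mb of *Dnmt3a* on chromosome 12, 0 passed the rule, and within 5 Mb 2 of 31 were lower, beside 0.654% of all genes in scope, namely *Gdf7* and the lincRNA gene *AC122860.2*. *AC122860.2* stood at 4.66 and 0.537 FPKM with DMSO and at 5.46 and 1.11 FPKM under GSK126.

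Genes are called higher or lower when the KO-labelled library differed from its WT library by at least 2-fold in the same direction in both pairs, on log2(FPKM + 1). This scale understates the change of genes near or under 1 FPKM. By this rule 136 genes, 0.956% of those in scope, were higher and 93 genes, 0.654%, were lower in the KO-labelled libraries. In the DMSO pair alone 580 genes (4.08%) were 2-fold higher and 277 (1.95%) 2-fold lower, while the GSK126 pair had 391 (2.75%) and 401 (2.82%). The genes higher in both pairs made up 23.4% of the DMSO list and 34.8% of the GSK126 list, and the genes lower in both made up 33.6% and 23.2%. Another 41 genes (0.288%) differed by 2-fold in opposite directions. Among the 12530 protein-coding genes, 114 (0.91%) were higher, 78 (0.623%) were lower and 10 (0.0798%) were opposite. The correlation of the log2 ratios of the 2 pairs across genes was r = 0.237 over all genes in scope and 0.427 over protein-coding genes, given as a description because genes are not independent replicates.

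**Figure D1:**
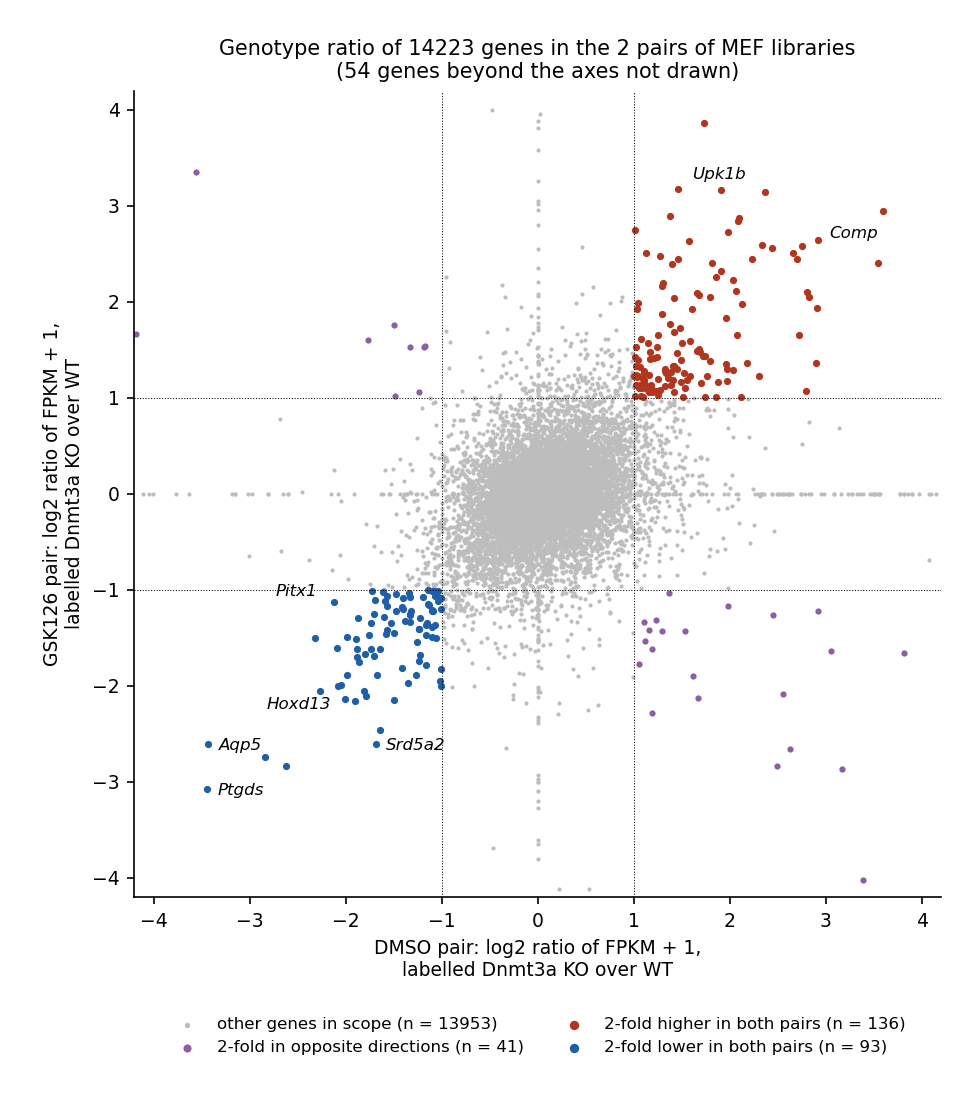
Each point is a gene, placed by its log2 ratio of FPKM + 1, KO-labelled over WT, in the DMSO pair (horizontal axis) and in the GSK126 pair (vertical axis), 1 library per condition, with dotted lines at the 2-fold threshold. The 136 higher genes (red) fill the upper right corner, the 93 lower genes (blue) the lower left corner, and the 41 opposite genes (purple) the other corners, while 54 genes lie beyond the axes and are not drawn.

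The bulk of genes differed little between the genotypes. The median log2 ratio over all genes was 0.04 with DMSO and 0.00 with GSK126, and the quartiles of the genes lay at -0.20 and 0.32 with DMSO and at -0.20 and 0.20 with GSK126. Only 19 higher and 7 lower genes differed by 4-fold or more in both pairs. The median of the highest FPKM of a gene was 12.3 for the higher genes and 8.79 for the lower genes, against 13.4 over all genes in scope. The rule's edges were narrow: *Ahcyl2* passed as higher with a ratio of 1.0003 in its weaker pair while *Ulk3* missed with 0.9979, and *Gas2* passed as lower with -1.0018 while *Plxdc1* missed with -0.9986. At the 1 FPKM limit, *4632427E13Rik* entered with 1.00002 FPKM and Gm16344 stayed out with 0.999516 FPKM.

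Several matrix protein genes were on the higher side, *Comp* leading all protein-coding genes there. Values are given throughout for WT first and KO-labelled MEFs second. *Comp*, which encodes a matrix protein of cartilage and tendon, stood at 8.91 and 74.3 FPKM with DMSO and at 7.76 and 53.9 FPKM under GSK126, with log2 ratios of 2.93 and 2.65. *Fmod*, encoding the collagen-binding proteoglycan fibromodulin, was at 36.9 and 165 FPKM with DMSO and at 27.4 and 111 FPKM under GSK126. *C1qtnf3*, a secreted protein made by cartilage and other mesenchyme, was at 17.9 and 131 FPKM with DMSO and at 30.2 and 133 FPKM under GSK126. In all 3 genes the KO-labelled libraries lay far above the WT libraries, and the GSK126 ratio was the smaller one. *Eln*, the gene of elastin, followed with 63.3 and 317 FPKM with DMSO and 109 and 258 FPKM under GSK126. *Ltbp2*, whose product binds elastic fibres, was at 63.4 and 171 FPKM with DMSO and at 65.6 and 167 FPKM under GSK126. *Prelp*, another small proteoglycan, was at 28.4 and 73.5 FPKM with DMSO and at 34.1 and 83.0 FPKM under GSK126. *Comp*, *Fmod*, *Eln*, *Ltbp2* and *Prelp* are the 5 higher members among 40 proteoglycans and matrix glycoproteins in scope (12.5%), of which 0 were lower, beside 0.956% and 0.654% of all genes in scope, with median log2 ratios of 0.26 and 0.13 against 0.04 and 0.00 over all genes. The most abundant member was not called, *Sparc* standing at 2626 and 3117 FPKM with DMSO and at 2644 and 3064 FPKM under GSK126.

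Collagen genes were split. Of 35 in scope, 3 (8.57%) were higher and 1 (2.86%) was lower, beside 0.956% and 0.654% of all genes, with medians of 0.32 with DMSO and -0.04 with GSK126. *Col2a1*, the main collagen of cartilage, stood at 60.2 and 196 FPKM with DMSO and at 79.7 and 223 FPKM under GSK126. *Col10a1*, the collagen of hypertrophic cartilage, was at 4.50 and 35.3 FPKM with DMSO and at 8.53 and 29.1 FPKM under GSK126. *Col4a6*, a basement membrane chain, was at 1.67 and 4.46 FPKM and at 1.92 and 5.80 FPKM. *Col18a1*, the basement membrane collagen that gives rise to endostatin, went the other way, from 140 to 65.2 FPKM with DMSO and from 129 to 54.9 FPKM with GSK126. The fibril collagens of fibroblasts passed the threshold in neither direction in both pairs, although *Col3a1* read 2398 FPKM in WT and 1193 FPKM in KO-labelled MEFs with GSK126. The wider chondrocyte and osteoblast marker list had 2 of 11 genes (18.2%) higher, *Comp* and *Col2a1*, beside the same 0.956%, with medians of 0.72 and 0.07. *Sox9*, the master regulator of chondrocytes, read between 4.35 and 5.06 FPKM in all 4 libraries. The summed level of this marker list was 419 and 532 FPKM with DMSO and 541 and 538 FPKM under GSK126, and the part of cartilage cells in the matrix differences was not tested.

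**Figure D2:**
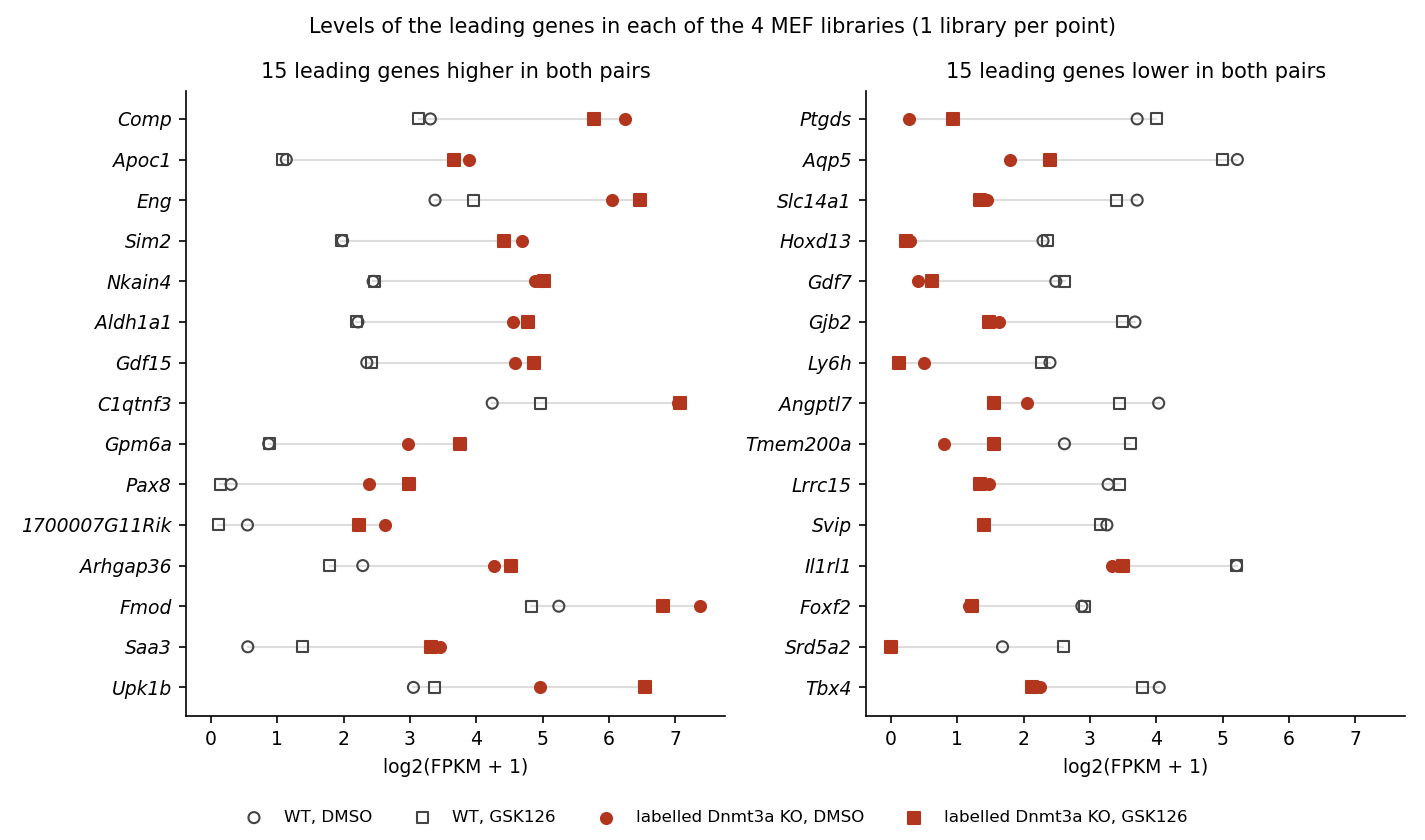
The 15 leading protein-coding genes in each direction, ranked by the smaller of their 2 log2 ratios, are drawn by their log2(FPKM + 1) in each of the 4 libraries, 1 library per point, open symbols for WT and filled for KO-labelled MEFs. In every gene drawn both filled symbols lie on the same side of both open symbols, as in Comp at 53.9 and 74.3 FPKM against 7.76 and 8.91 FPKM.

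The other leading genes on the higher side were of mixed kinds. *Eng* encodes endoglin, a co-receptor for TGF-beta and BMP ligands, and stood at 9.40 and 64.8 FPKM with DMSO and at 14.6 and 87.5 FPKM under GSK126. *Sim2*, a transcription factor of the bHLH-PAS family, was at 2.96 and 24.7 FPKM with DMSO and at 2.90 and 20.3 FPKM under GSK126. *Aldh1a1*, which makes retinoic acid, was at 3.65 and 22.5 FPKM with DMSO and at 3.56 and 26.6 FPKM under GSK126. In each of them both KO-labelled libraries lay several-fold above both WT libraries. *Gdf15*, a stress-induced cytokine of the TGF-beta family, was at 4.10 and 23 FPKM with DMSO and at 4.38 and 28.4 FPKM under GSK126. *Apoc1*, an apolipoprotein gene, was at 1.20 and 13.9 FPKM with DMSO and at 1.12 and 11.7 FPKM under GSK126. *Saa3*, an acute-phase serum amyloid gene, was at 0.471 and 10.0 FPKM with DMSO and at 1.61 and 8.95 FPKM under GSK126. *Nkain4*, *Gpm6a*, *Arhgap36*, *Upk1b*, *Pax8* and *1700007G11Rik* complete the 15 leading genes, with smaller log2 ratios between 1.91 for *Upk1b* and 2.44 for *Nkain4*.

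*Pax8*, a transcription factor of kidney and thyroid development, was nearly silent in WT cells. It stood at 0.236 FPKM in WT and 4.24 FPKM in KO-labelled MEFs with DMSO, and at 0.101 and 6.92 FPKM under GSK126, which is about 13 and 346 reads and 6 and 466 reads on its longest transcript. Its log2 ratios were 2.09 and 2.85. Of the kidney and mesonephros marker list, 2 of 6 genes in scope (33.3%) were higher, *Pax8* and *Wt1*, beside 0.956% of all genes, with medians of 0.78 and 0.86, while *Osr1* read 34.0 and 33.1 FPKM with DMSO and 32.6 and 42.3 FPKM under GSK126. The other kidney factors *Pax2* and *Lhx1* stayed under 0.07 FPKM in all 4 libraries. With a mean of at least 5 FPKM over the 4 libraries, 1 gene of the list was left and 0 were called. The summed kidney list was 45.6 and 56.9 FPKM with DMSO and 47.2 and 68.4 FPKM under GSK126, and its part in the *Pax8* difference was not tested.

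Because DNMT3A acts on CG dinucleotides, the promoters of 5 called genes are printed here to show how far they differ in CG content, from a promoter with almost none to one packed with it. They are the RefSeq GRCm38.p6 sequences from 250 bases before to 50 bases after the gene start, 300 bases each, 5′ to 3′ on the gene's strand, with every CG in capitals. The motif CG reads the same on both strands and does not overlap itself. *Pax8* lies at chr2:24475550-24475849 on the minus strand, *Eng* at chr2:32646345-32646644 on the plus strand, *Upk3b* at chr5:136038246-136038545 on the plus strand, *Hoxa5* at chr6:52204538-52204837 on the minus strand and *Hoxa13* at chr6:52260831-52261130 on the minus strand.
Pax8: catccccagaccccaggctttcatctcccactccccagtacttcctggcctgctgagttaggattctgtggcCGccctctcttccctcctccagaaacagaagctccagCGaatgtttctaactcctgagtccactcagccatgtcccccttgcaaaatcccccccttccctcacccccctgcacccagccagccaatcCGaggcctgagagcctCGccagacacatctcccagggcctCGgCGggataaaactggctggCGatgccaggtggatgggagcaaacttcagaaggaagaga
Eng: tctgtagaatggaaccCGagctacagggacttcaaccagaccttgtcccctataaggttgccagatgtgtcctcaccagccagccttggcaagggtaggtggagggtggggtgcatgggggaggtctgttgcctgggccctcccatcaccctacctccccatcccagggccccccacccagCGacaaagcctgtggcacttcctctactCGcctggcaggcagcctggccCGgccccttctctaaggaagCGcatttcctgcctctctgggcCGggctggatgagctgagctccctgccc
Upk3b: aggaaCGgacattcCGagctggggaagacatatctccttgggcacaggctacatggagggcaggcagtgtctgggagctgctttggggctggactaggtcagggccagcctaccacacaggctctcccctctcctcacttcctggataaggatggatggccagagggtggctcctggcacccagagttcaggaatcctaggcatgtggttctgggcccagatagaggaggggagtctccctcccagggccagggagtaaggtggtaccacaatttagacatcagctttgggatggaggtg
Hoxa5: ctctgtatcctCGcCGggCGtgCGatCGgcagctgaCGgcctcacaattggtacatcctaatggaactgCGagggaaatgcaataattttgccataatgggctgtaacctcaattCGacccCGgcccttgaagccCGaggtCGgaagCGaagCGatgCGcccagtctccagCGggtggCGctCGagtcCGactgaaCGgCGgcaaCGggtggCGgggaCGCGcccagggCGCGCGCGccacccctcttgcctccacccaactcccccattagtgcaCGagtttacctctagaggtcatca
Hoxa13: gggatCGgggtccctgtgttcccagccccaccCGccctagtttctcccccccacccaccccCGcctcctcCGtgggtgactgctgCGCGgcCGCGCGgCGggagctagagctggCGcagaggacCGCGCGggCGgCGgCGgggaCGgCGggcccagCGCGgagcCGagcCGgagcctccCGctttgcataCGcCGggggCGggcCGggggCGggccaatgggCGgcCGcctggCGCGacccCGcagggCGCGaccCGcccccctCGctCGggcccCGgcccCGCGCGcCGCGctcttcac
The counts of CG were 7 in *Pax8*, 6 in *Eng* and 2 in *Upk3b*, all 3 higher in the KO-labelled libraries. Over 32851 promoters of this length the median was 7, and 52.1%, 56.4% and 85.9% of them held at least as many CG as these 3. *Hoxa5*, also higher, held 29 CG, a number that 12.9% of promoters reached, and *Hoxa13*, which was lower, held 45, which 1.93% reached. The letters are a description only: no methylation value of these MEFs was used, and a CG is not a methylated site.

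Genes known from the mesothelium, the epithelial sheet that lines the body cavities, were higher together. Of 7 mesothelial markers, all in scope, 5 (71.4%) were higher and 0 lower, beside 0.956% and 0.654% of all genes in scope, with medians of 1.58 with DMSO and 1.67 with GSK126. *Upk1b*, a tetraspanin of the uroplakin complex, stood at 7.30 and 30.3 FPKM with DMSO and at 9.38 and 92.5 FPKM under GSK126. *Upk3b*, another uroplakin, was at 12.9 and 40.5 FPKM with DMSO and at 13.3 and 88.0 FPKM under GSK126. *Wt1*, a transcription factor of mesothelium, gonad and kidney, was at 1.03 and 5.42 FPKM with DMSO and at 0.982 and 4.56 FPKM under GSK126. In the uroplakin genes the KO-labelled GSK126 library was the highest of the 4, while WT cells gave nearly the same level with either treatment. *Lrrn4*, a leucine-rich repeat membrane protein, read 2.36 and 9.21 FPKM and then 1.56 and 8.73 FPKM. *Bnc1*, a zinc finger factor of epithelia, read 0.925 and 3.07 FPKM and then 0.708 and 4.23 FPKM. The remaining 2 were not called: *Msln*, the gene of mesothelin, read 29.5 and 42.3 FPKM with DMSO and 38.2 and 124 FPKM under GSK126, and *Krt19*, a keratin, 22.6 and 19.8 FPKM and then 23.3 and 42.0 FPKM. The summed level of the list was 76.7 and 150 FPKM with DMSO and 87.4 and 364 FPKM under GSK126, and 0 of the 7 markers were at 0 in all libraries. In bulk RNA, more cells of a type and more RNA of these genes per cell cannot be told apart.

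Other epithelial markers were called only in part. Of 13 listed, 4 were in scope and 2 of them were higher, beside 0.956% of all genes. *Krt14*, a keratin of basal epithelia, stood at 0.905 and 3.94 FPKM with DMSO and at 1.18 and 15.3 FPKM under GSK126. *Krt8*, a keratin of simple epithelia, was at 1.04 and 4.62 FPKM with DMSO and at 0.998 and 9.87 FPKM under GSK126. The adhesion genes that define epithelia, *Epcam* and *Cdh1*, stayed under 1 FPKM, and *Cldn6*, *Grhl2* and *Esrp1* were at 0 in all 4 libraries. The summed list was 30.6 and 38.5 FPKM with DMSO and 33.6 and 80.4 FPKM under GSK126, and the part of epithelial cells in these differences was not tested. The endothelial list had 2 of 6 genes (33.3%) higher, beside the same 0.956%, namely *Eng* and *Esam*, an adhesion molecule listed at 0.169 and 2.04 FPKM with DMSO and at 0 and 2.41 FPKM under GSK126. Its defining members did not follow: *Cdh5*, the cadherin of endothelial junctions, read 1.90 and 0.0514 FPKM with DMSO and 0.706 and 0.0498 FPKM under GSK126, and *Tie1*, *Sox17* and *Cldn5* were at 0. The median of the endothelial list was -0.46 and -0.02, and its sum, 30.8 and 80.7 FPKM with DMSO and 29.3 and 101 FPKM under GSK126, was mostly *Eng* in the KO-labelled libraries.

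**Figure D3:**
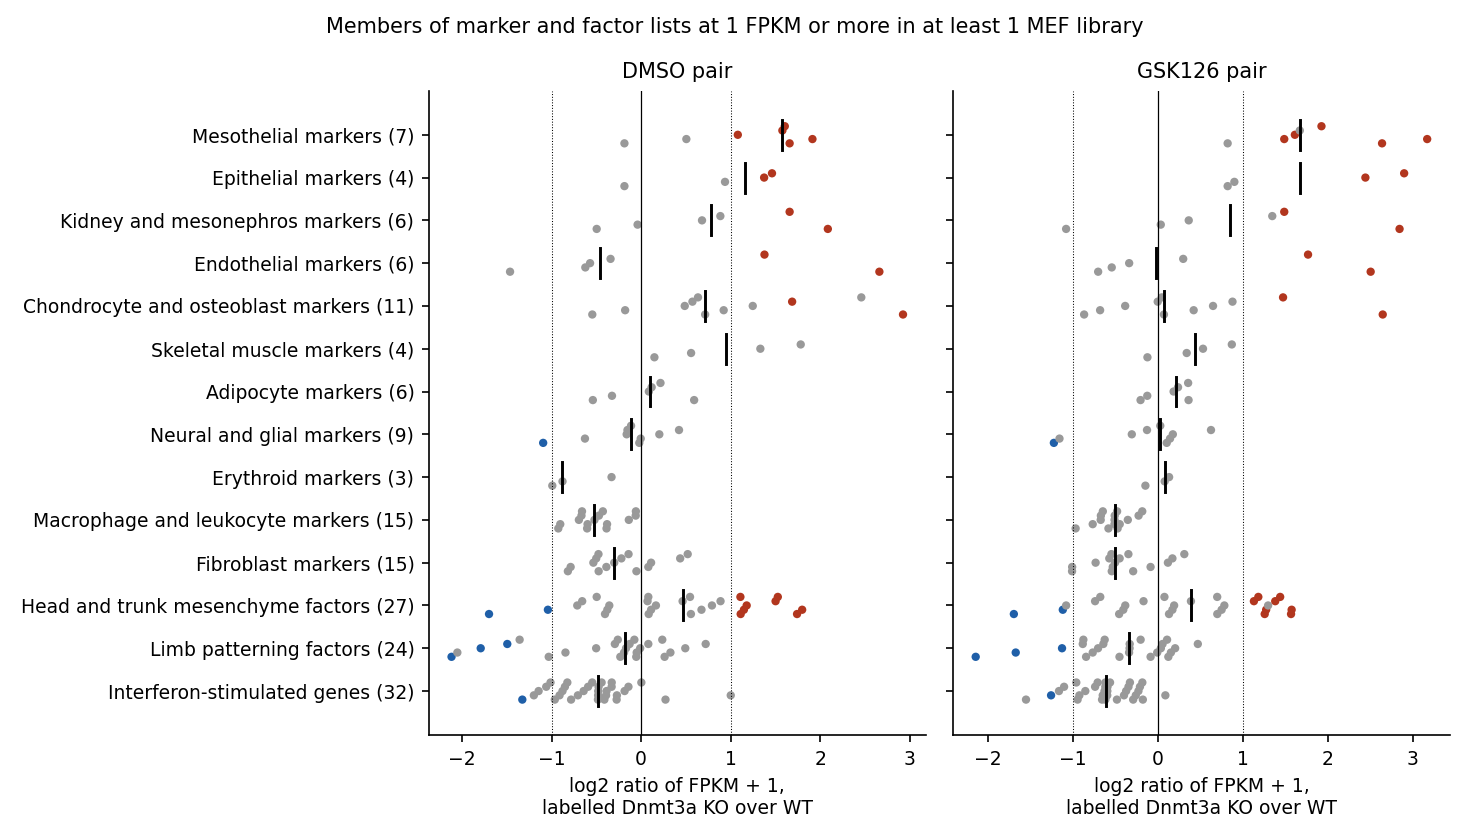
Each point is a list member at 1 FPKM or more in at least 1 MEF library, placed by its log2 ratio of FPKM + 1, KO-labelled over WT, in the DMSO pair (left) and the GSK126 pair (right), with the number in scope in brackets, a black bar at the list's median and called genes in red (higher) or blue (lower). The mesothelial list has medians of 1.58 and 1.67, while all 15 macrophage and leukocyte markers lie left of 0 in both pairs.

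On the lower side, the leading gene was *Ptgds*, the prostaglandin D synthase gene. It stood at 12.1 FPKM in WT and 0.204 FPKM in KO-labelled MEFs with DMSO, and at 15 and 0.906 FPKM under GSK126, with log2 ratios of -3.44 and -3.07. *Aqp5*, a water channel of glandular epithelia, was at 36.3 and 2.46 FPKM with DMSO and at 30.9 and 4.26 FPKM under GSK126. *Slc14a1*, a urea transporter, was at 12.1 and 1.73 FPKM with DMSO and at 9.54 and 1.54 FPKM under GSK126. All 3 were clearly expressed in both WT libraries and under 5 FPKM in both KO-labelled libraries. *Srd5a2*, a steroid 5-alpha-reductase, was at 2.21 and 5.06 FPKM in the WT libraries and listed at 0 in both KO-labelled libraries, so no fold is given. *Gjb2*, a gap junction gene, was at 11.8 and 2.09 FPKM with DMSO and at 10.2 and 1.80 FPKM under GSK126. *Il1rl1*, the receptor of interleukin 33, was at 36.0 and 9.03 FPKM with DMSO and at 35.8 and 10.3 FPKM under GSK126. *Gdf7*, a BMP family ligand, was at 4.60 and 0.326 FPKM with DMSO and at 5.15 and 0.541 FPKM under GSK126. The ratios of *Gjb2*, *Gdf7* and *Il1rl1* were nearly equal in the 2 pairs, as in *Il1rl1* with -1.88 and -1.70. *Ly6h*, *Angptl7*, *Tmem200a*, *Lrrc15*, *Svip*, *Foxf2*, *Hoxd13* and *Tbx4* complete the 15 leading lower genes.

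Of 3 further lower genes, chosen after their values were seen, *Crabp1* had the highest level. It encodes a retinoic acid binding protein and stood at 553 and 129 FPKM with DMSO and at 682 and 224 FPKM under GSK126, with log2 ratios of -2.09 and -1.60. *Il1rn*, the antagonist of the interleukin 1 receptor, was at 367 and 110 FPKM with DMSO and at 233 and 115 FPKM under GSK126. *Rarb*, the gene of a retinoic acid receptor, was low throughout, at 3.13 and 0.359 FPKM with DMSO and at 2.86 and 0.592 FPKM under GSK126. All 3 were lower in both KO-labelled libraries than in both WT libraries, whatever the treatment.

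A few Hox genes were called, the higher ones in paralogue groups 1 to 9 and the lower ones in groups 10 to 13. The Hox genes lie in 4 clusters and are numbered by their order, low numbers marking anterior and high numbers posterior and distal positions. Of the 11 genes of paralogue groups 1 to 5 in scope, 2 were higher and 0 lower, 9 had ratios above 0 in both pairs, and the medians were 0.57 and 0.56. Of the 12 genes of groups 6 to 9, 2 were higher and 0 lower, 8 were above 0 in both pairs, and the medians were 0.81 and 0.66. Of the 10 genes of groups 10 to 13, 0 were higher and 3 lower, 7 were below 0 in both pairs, and the medians were -0.73 and -0.73. Over all genes in scope 0.956% were higher and 0.654% lower, with medians of 0.04 and 0.00. The share of all genes above or below 0 in both pairs is not given here, so these sign counts have no baseline. Most Hox genes were not called, the 3 lower calls were all in genes with a mean under 5 FPKM, and the difference between the groups was not tested.

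*Hoxa5* stood at 5.84 and 16.9 FPKM with DMSO and at 4.0 and 11.1 FPKM under GSK126, and *Hoxa7* at 12.3 and 35.5 FPKM and then 11.5 and 29.8 FPKM. *Hoxa3*, with 1.16 and 6.22 FPKM with DMSO and 1.78 and 4.58 FPKM under GSK126, and *Hoxb6*, with 4.37 and 9.86 FPKM and then 4.42 and 10.0 FPKM, passed narrowly, and each lost its call when the ratios were centred on their median. *Hoxd13*, which patterns the digits, was at 3.90 and 0.222 FPKM with DMSO and at 4.12 and 0.166 FPKM under GSK126. *Hoxa13*, its paralogue in the A cluster, was at 2.46 and 0.0356 FPKM with DMSO and at 2.83 and 0.251 FPKM under GSK126. *Hoxd11*, which acts in the forearm, was at 2.99 and 0.862 FPKM with DMSO and at 2.67 and 0.817 FPKM under GSK126. The more abundant posterior genes read lower without passing in both pairs, *Hoxa10* with 32.5 and 21.7 FPKM with DMSO and 28.1 and 14.1 FPKM under GSK126. Exceptions in the posterior groups were *Hoxc12*, at 0.268 and 2.40 FPKM with DMSO and 0.995 and 2.79 FPKM under GSK126, and *Hoxc13*, with ratios of 0.55 and 0.55. Of the 12 genes of groups 6 to 9, *Hoxa9*, *Hoxd8* and *Hoxd9* were the 3 with ratios below 0 in both pairs, none of them called, and *Hoxd8* had the lowest ratios, with 14 and 6.59 FPKM with DMSO and 16.2 and 7.97 FPKM under GSK126.

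**Figure D4:**
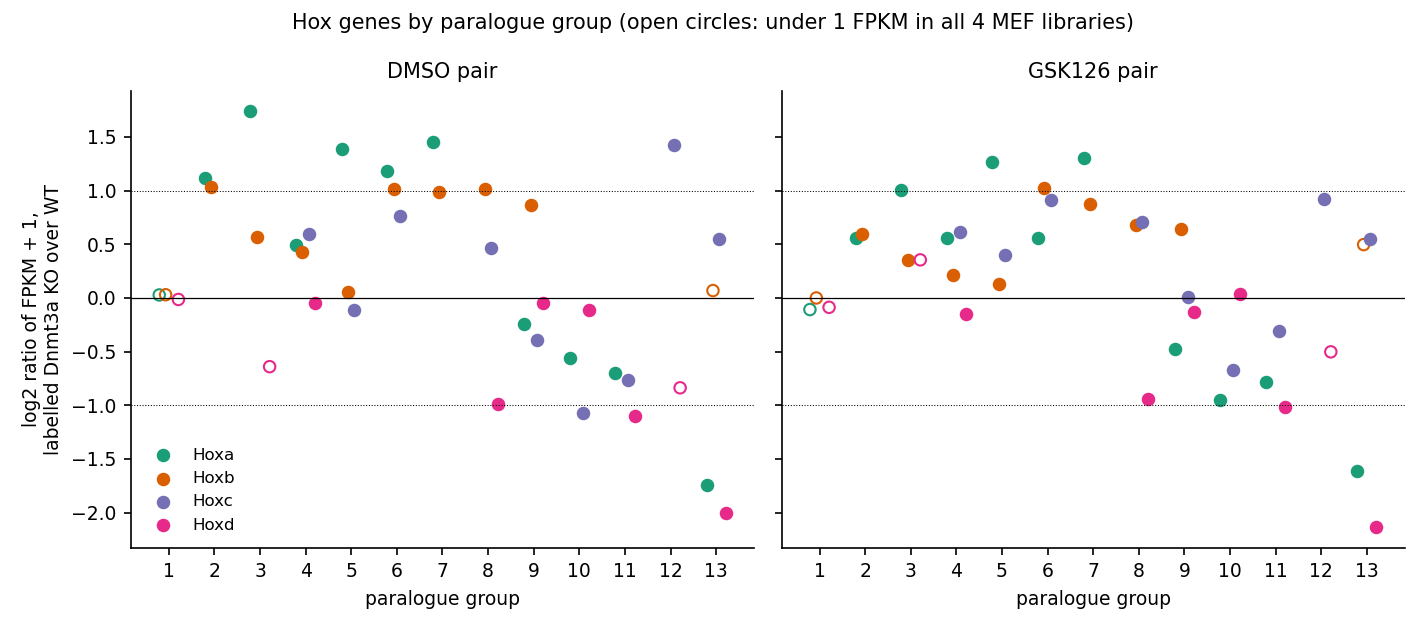
Each Hox gene is drawn by its paralogue group, 1 to 13, and its log2 ratio of FPKM + 1, KO-labelled over WT, in the DMSO pair (left) and the GSK126 pair (right), coloured by cluster, with open circles for genes under 1 FPKM in all 4 MEF libraries. Most genes of groups 2 to 8 lie above 0 and most of groups 10 to 13 below it, down to -2.0 and -2.13 for Hoxd13, with Hoxc12 at 1.42 and 0.93 as an exception.

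Among factors that pattern the limbs, the calls were on the lower side. Of 24 limb patterning factors in scope, 0 were higher and 3 (12.5%) lower, beside 0.956% and 0.654% of all genes in scope, with medians of -0.18 and -0.33. *Tbx4*, a T-box factor of the hindlimb, stood at 15.5 and 3.75 FPKM with DMSO and at 12.8 and 3.35 FPKM under GSK126. *Pitx1*, which specifies hindlimb identity, was at 50.5 and 10.9 FPKM with DMSO and at 32.5 and 14.4 FPKM under GSK126. *Msx1*, a homeobox factor of the distal limb and face, was at 4.17 and 0.832 FPKM with DMSO and at 7.38 and 0.899 FPKM under GSK126. Factors of limb mesenchyme as a whole read alike in the genotypes, *Prrx1* lying between 106 and 126 FPKM and *Prrx2* between 174 and 205 FPKM. *Shox2*, a factor of proximal limb segments, was at 39.4 and 8.72 FPKM with DMSO but at 34.1 and 21.6 FPKM under GSK126, and so passed in 1 pair only. *Isl1*, an early hindlimb factor that was named after its values were seen, was at 5.78 and 1.16 FPKM with DMSO and at 5.70 and 1.19 FPKM under GSK126.

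Factors of head and trunk mesenchyme were called mostly on the other side. Of 27 in scope, 8 (29.6%) were higher and 2 (7.41%) lower, both above the 0.956% and 0.654% of all genes in scope, with medians of 0.46 and 0.39. *Alx1*, a factor of the face, stood at 1.70 and 8.41 FPKM with DMSO and at 1.69 and 6.02 FPKM under GSK126. *Meox1*, a factor of the somites, was at 2.33 and 10.1 FPKM with DMSO and at 5.27 and 16 FPKM under GSK126. *Nkx3-2*, which acts in the axial skeleton and jaw, was at 0.806 and 4.11 FPKM with DMSO and at 0.715 and 4.11 FPKM under GSK126. *Tbx1*, a factor of the pharyngeal arches, was at 0.988 and 4.73 FPKM with DMSO and at 0.721 and 3.12 FPKM under GSK126. All 4 were low in WT cells and several-fold higher in both KO-labelled libraries. *Pax1*, *Foxd1*, *Foxf1* and *Foxp2* were the other higher members, with log2 ratios between 1.11 for *Foxd1* with DMSO and 1.57 for *Pax1* with GSK126. The 2 lower members were *Foxf2*, at 6.35 and 1.26 FPKM with DMSO and 6.54 and 1.33 FPKM under GSK126, and *Tbx18*, at 4.59 and 1.72 FPKM and then 4.39 and 1.49 FPKM. *Foxf1* and *Foxf2*, which are close relatives, were therefore called in opposite directions, *Foxf1* reading 2.56 and 6.70 FPKM with DMSO and 2.77 and 7.58 FPKM under GSK126. The position of the tissue from which each culture was grown is not given in the sources used here, and its part in these differences was not tested.

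Signalling genes gave few calls in each pathway, to be read beside the 0.956% higher and 0.654% lower over all genes. In the Hedgehog pathway 2 of 9 genes (22.2%) were lower, with medians of 0.05 and -0.47. *Gas1*, a co-receptor for Hedgehog ligands, stood at 151 and 71.2 FPKM with DMSO and at 97.4 and 47.7 FPKM under GSK126. *Gli2*, the main activating transcription factor of the pathway, was at 8.56 and 3.56 FPKM with DMSO and at 6.90 and 2.77 FPKM under GSK126. The receptor component *Smo* was not called, lying between 60.5 and 65.8 FPKM. Among 30 WNT genes, 1 was higher and 2 lower, with medians of 0.19 and 0.05: *Rspo1*, an R-spondin ligand that strengthens WNT signals, read 2.26 and 7.94 FPKM with DMSO and 4.0 and 12.9 FPKM under GSK126. Its receptors were the lower genes, *Lgr5* with 10.7 and 4.72 FPKM with DMSO and 12.7 and 5.54 FPKM under GSK126, and *Lgr6* with 1.47 and 0.179 FPKM and then 2.27 and 0.271 FPKM. Among 31 BMP and TGF-beta genes, *Gdf15* was higher, with medians of 0.39 and -0.03. Of 18 FGF genes 1 was higher, the receptor gene *Fgfr3*, with medians of 0.41 and 0.30, and of 32 axon guidance genes 1 was higher, *Sema3b*, with medians of 0.01 and -0.04.

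Immune genes gave single calls in either direction, again beside 0.956% higher and 0.654% lower over all genes. Of 27 chemokines and cytokines, *Cxcl14* and *Il1rn* were lower and *Tnfsf15* higher, with medians of 0.11 and -0.20. *Cxcl14*, a chemokine made by fibroblasts and epithelia, stood at 24.3 and 7.12 FPKM with DMSO and at 38.5 and 6.19 FPKM under GSK126. Of 32 interferon-stimulated genes only *Isg15* was called, at 26.8 and 10.1 FPKM with DMSO and 48.9 and 19.9 FPKM under GSK126. The count of lower genes on this list was 5 with a pseudocount of 0.1 FPKM and 11 at a 1.5-fold threshold. Ratios were below 0 in both pairs for 28 of the 32 and above 0 in both for 0, with medians of -0.48 and -0.61. Over all genes in scope the medians were 0.04 and 0.00. The share of all genes with both ratios below 0 is not given here, so the sign counts of this paragraph have no baseline. Macrophage and leukocyte markers were below WT too, with no call: 15 of 15 in scope were below 0 in both pairs, with medians of -0.52 and -0.51, and 0 were at 0 FPKM. Their summed level was 2384 and 1829 FPKM with DMSO and 2446 and 1718 FPKM under GSK126, *Lyz2*, the lysozyme gene of myeloid cells, being the most abundant at 638 to 885 FPKM. The part of these cells in the interferon-stimulated and cytokine differences was not tested. Of 17 complement genes 1 was higher, *Cd59a*, a complement inhibitor read at 3.35 and 13.3 FPKM with DMSO and 4.97 and 15.2 FPKM under GSK126, with list medians of 0.11 and -0.39, and 0 of 16 antigen presentation genes were called.

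Lists of genes whose silence or imprinting is tied to DNA methylation gave no calls, although single genes outside them did. Of 27 germline genes with methylated promoters, 3 reached 1 FPKM and 0 were called, the highest being Tdrkh, at 1.83 and 3.23 FPKM with DMSO and 2.84 and 2.87 FPKM under GSK126. The 3 had ratios above 0 in both pairs, with medians of 0.98 and 0.24, and the whole list summed to 4.26 and 9.84 FPKM with DMSO and to 5.13 and 7.85 FPKM under GSK126. *Tex15*, a germline gene that is not on the list and was named after its values were seen, was called higher, at 0.29 and 1.87 FPKM with DMSO and 0.59 and 2.45 FPKM under GSK126. Of 16 pluripotency genes 4 reached 1 FPKM and 0 were called. Of 19 paternally and 15 maternally expressed imprinted genes in scope 0 were called: *Igf2* lay between 4320 and 5158 FPKM and *H19* between 5407 and 6654 FPKM. Of 26 clustered protocadherin genes 0 were called, with medians of -0.30 and -0.21. Genes under 1 FPKM in all 4 libraries cannot reach 2-fold on FPKM + 1, whatever their change. These were 24 of the 27 germline, 12 of the 16 pluripotency and 31 of the 57 protocadherin genes listed. For them the lack of calls shows nothing. Among the members in scope no difference of 2-fold in both pairs was seen, and single libraries do not allow smaller differences to be judged.

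The study's list of DNMT3A target genes, which was drawn from methylation in other MEFs derived from ES cells, gave few calls. Of its 355 genes 354 were found and 257 were in scope, of which 9 (3.5%) were higher and 4 (1.56%) lower, beside 0.956% and 0.654% over all genes, with medians of 0.01 and -0.01. Ratios were above 0 in both pairs for 91 and below 0 in both for 90, with no share over all genes given beside these counts. The 9 higher genes were *1700007G11Rik*, *Eng*, *Epb41l4a*, *Hoxa3*, *Hoxa5*, *Hoxa7*, *Hoxb6*, *Krt8* and *Tbx1*, so 4 of them are Hox genes that lie in 2 clusters. The 4 lower genes were *Foxf2*, *Nhsl1*, *Pnmal2* and *Osr2*, a factor of palate and limb that stood at 30.9 and 10.3 FPKM with DMSO and at 29.9 and 10.3 FPKM under GSK126. With a pseudocount of 0.1 FPKM 14 targets were higher and 11 lower, beside 316 and 250 of all genes in scope. At a 1.5-fold threshold 19 were higher and 18 lower, beside 425 and 353. No test of these shares was made.

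Lists of growth, metabolism and housekeeping had few or no calls, beside the same shares over all genes. Among 24 G2/M genes, 26 DNA replication genes, 30 cholesterol and fatty acid synthesis genes, 24 glycolysis and hypoxia genes, 24 ATF4 and unfolded-protein genes and 82 cytosolic ribosomal protein genes, 0 were called. The same held for 27 matrix proteases and inhibitors, 17 myofibroblast and smooth muscle genes and 10 IGF genes. Of 21 p53 targets *Gdf15* was higher, and of 16 NRF2 genes the glutathione transferase gene *Gsta3* was higher, at 1.64 and 5.40 FPKM with DMSO and 0.969 and 9.96 FPKM under GSK126. Other cell type lists were as bare: 0 of 15 fibroblast markers were called, with medians of -0.30 and -0.50, and 0 of 4 skeletal muscle, 0 of 3 erythroid and 0 of 6 adipocyte markers. Of 9 neural and glial markers 1 was lower, the adhesion gene *Ncam1*, at 21.3 and 9.45 FPKM with DMSO and 23.8 and 9.62 FPKM under GSK126.

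E14.5 heart and liver were sequenced in the same series, again with 1 library labelled WT and 1 labelled *Dnmt3a* KO each, and show how far the MEF differences recur in other libraries. Both WT titles carry the same animal number, as do both KO titles, so heart and liver appear to come from 1 WT and 1 KO embryo and are not independent of each other. Of the 136 genes higher in MEFs, 99 reached 1 FPKM in heart, where 12 (12.1%) were 2-fold higher and 4 (4.04%) 2-fold lower, against 1.58% and 1.27% of the genes in scope that reached 1 FPKM there, and 1.39% and 1.12% of all genes in scope. In liver 83 reached 1 FPKM, 6 of them (7.23%) higher and 4 (4.82%) lower, against 0.929% and 1.73% of those that reached 1 FPKM there, and 0.78% and 1.46% of all in scope. Of the 93 genes lower in MEFs, 58 reached 1 FPKM in heart, with 4 higher and 1 lower, and 45 in liver, with 4 higher and 2 lower. So most MEF differences did not recur at 2-fold in these tissues. The higher genes that passed there were more often higher than lower, while the lower genes were more often higher, which is a reversal. Several of the recurring higher genes are pseudogene or noncoding rows, whose values are less certain. These include *Gm6472*, *CT030166.6*, *CT571245.5* and *Gm26447* in liver, and *Snora73b*, *Gm29408* and *Gm20444* in heart. The lower genes that reversed in heart were *Gm13532*, *Gm23119*, *Isg15* and *Rn7sk*.

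Among the protein-coding genes only *Wdfy1*, an endosomal adaptor of Toll-like receptor signalling, was 2-fold higher in MEFs with both treatments and in both tissues. It stood at 4.22 and 12.1 FPKM with DMSO, at 3.66 and 10.5 FPKM with GSK126, at 0.925 and 7.30 FPKM in heart and at 1.23 and 4.13 FPKM in liver, WT first. Every library labelled *Dnmt3a* KO thus lay above its WT partner, with log2 ratios between 1.20 and 2.11. The pseudogenes *Gm6472* and *CT030166.6* did the same, but processed pseudogenes share sequence with their parent genes and their values are uncertain. *Gm6472* on the X chromosome was at 0.875 and 318 FPKM with DMSO and at 0.949 and 394 FPKM under GSK126, and at 239 and 539 FPKM in heart and 302 and 709 FPKM in liver. *Apoc1* was also higher in heart, at 18.2 and 60.0 FPKM, but was at 537 and 541 FPKM in liver. *Isg15* and the label gene *Dnmt3a* were called in MEFs and went the other way in at least 1 tissue: *Isg15* was at 3.90 and 14.1 FPKM in heart and 6.32 and 73.7 FPKM in liver, and *Dnmt3a* at 55.0 and 125 FPKM in heart but at 53.5 and 12.7 FPKM in liver.

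**Figure D5:**
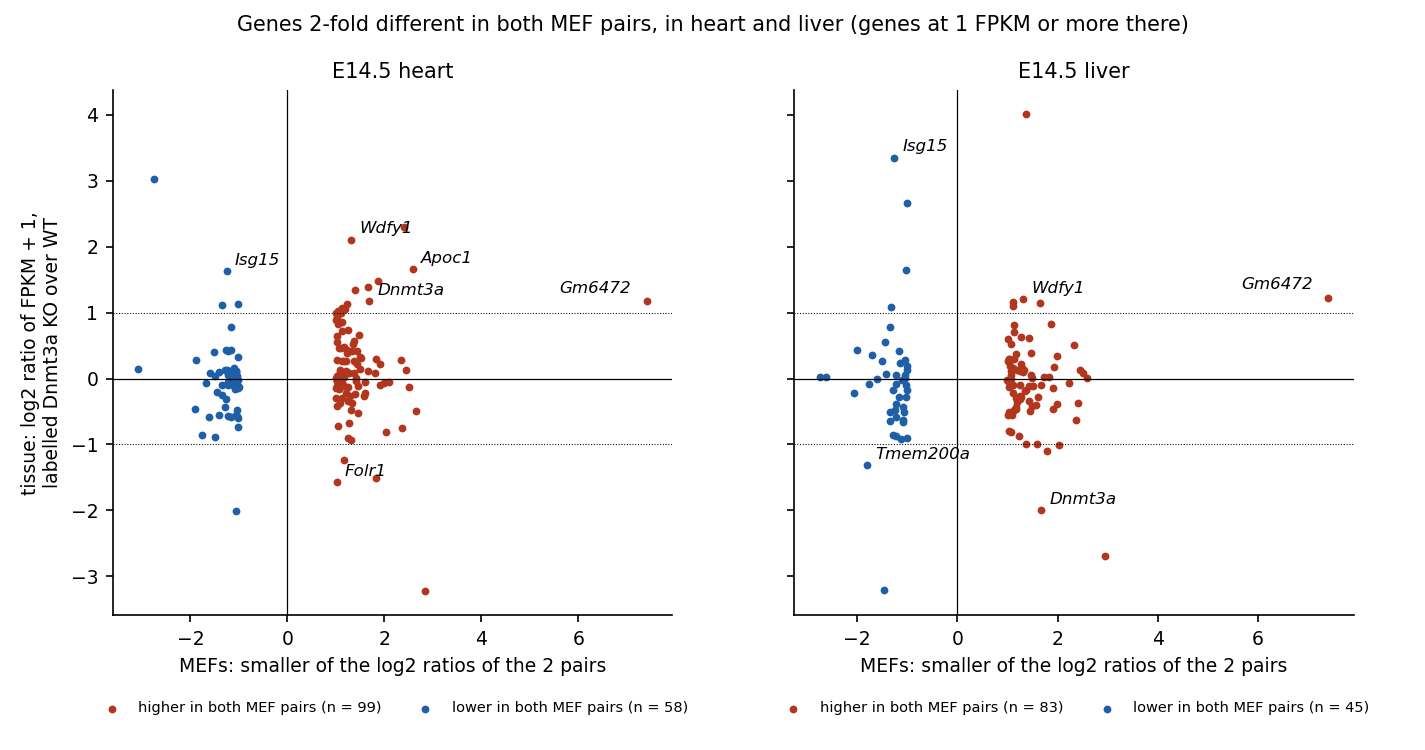
Each point is a gene called in MEFs, red for higher and blue for lower, placed by the smaller of its 2 MEF log2 ratios (horizontal axis) and by its log2 ratio of FPKM + 1, KO-labelled over WT, in E14.5 heart (left) or liver (right), for genes at 1 FPKM or more there. Most points lie between the dotted 2-fold lines, while Wdfy1 and Gm6472 are above them in both tissues and Isg15, lower in MEFs, is at 1.63 and 3.35.

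The called genes can also be set beside 2i-MEFs, MEFs grown from chimeric embryos made with female 2i/L ES cells, of which the *Dnmt3a* KO and Dnmt3b KO libraries were analysed here, 1 of each and without a WT library. Of the 136 higher genes 114 reached 1 FPKM in them, and 24 (21.1%) were 2-fold higher and 16 (14%) 2-fold lower in *Dnmt3a* KO than in Dnmt3b KO 2i-MEFs, against 4.61% and 2.64% of the genes that reached 1 FPKM there, and 4.14% and 2.37% of all genes in scope. *Pax8* stood at 16.6 and 0.715 FPKM and *Comp* at 13.8 and 0.0984 FPKM, *Dnmt3a* KO first, and both were higher there as in MEFs. *Apoc1*, *Col2a1*, *Eln*, *Fmod*, *Prelp*, *Pax1*, *Nkx3-2* and *Tbx1* were among the 24 as well. Among the 16 that went the other way were *Wt1*, at 1.57 and 6.22 FPKM, *Hoxa7*, at 6.22 and 14.9 FPKM, *Col4a6*, at 1.99 and 5.66 FPKM, and *Dnmt3a* itself, at 4.21 and 23.9 FPKM. Of the 93 lower genes 70 reached 1 FPKM, with 11 (15.7%) higher and 13 (18.6%) lower, *Aqp5* being lower at 1.22 and 6.22 FPKM, while *Msx1*, at 4.54 and 0.691 FPKM, *Col18a1*, at 137 and 55.8 FPKM, and *Lgr5*, at 9.25 and 3.45 FPKM, were higher. The 2i-MEFs differ from these MEFs in origin, sex, strain background and contrast, and no test was made.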

How the data were processed

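RNA-seq libraries were made with TruSeq Stranded mRNA chemistry and sequenced as single reads of 75 bases, per the study's methods. The authors used cutadapt 1.15 for trimming, tophat 2.1.1 with bowtie2 2.3.2 for mapping on mm10 with the GENCODE M15 annotation, kept unique reads (MAPQ of at least 20) and computed FPKM per gene with cufflinks 2.2.1. These are the versions in the methods, and the submitters' processing notes list other ones. The deposited table holds FPKM values for 10 libraries in 52609 rows, and no counts. FPKM depends on the transcript model, so estimated reads here are approximate.

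Rows of the same symbol were summed (155 repeats). For each pair, log2 ratios of FPKM + 1 were formed, and a gene was called at 2-fold in both. Depth was recovered from 6694 genes with a single transcript of at least 1500 bases, taking a value as whole within 0.1 read. Gene types, positions and transcript lengths came from GENCODE M21, which matched 52314 symbols, and promoters from RefSeq GRCm38.p6. The genes named are the 15 leading protein-coding genes in each direction with a transcript of at least 300 bases, up to 4 members of each of 46 lists (called members first, then the most abundant), the label checks, the 3 leading opposite genes and called genes within 5 Mb of *Dnmt3a*. Further list members, *Isl1*, *Rarb*, *Crabp1*, *Wdfy1*, *Tex15*, *Gm6472*, *CT030166.6* and the genes at the thresholds were named after their values were seen. The genes and lists were chosen with earlier results of these data known. Alternatives changed the pseudocount, the low-value filter, the scaling, the threshold and the treatment of repeated rows. No p-value was computed. The share of all genes with ratios on the same side of 0 in both pairs is not given, so sign counts in lists have no baseline. Results for some genes are not reported here. The script was tested on simulated data. Python 3.11.15, numpy 2.4.6, pandas 2.3.3 and matplotlib 3.10.9 were used.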

Additional observations from a re-analysis of the deposited data

Results flagged for a closer look

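The genotype differences of some genes pointed in opposite directions with DMSO and with GSK126, and these differences between the treatments were not tested, since each rests on 4 single libraries. The 3 with the largest ratios were *Mir1957b*, with log2 ratios of 4.8 with DMSO and -5.5 with GSK126, the snoRNA gene *Snora64*, with 5.97 and -4.36, and *Gm23991*, also a snoRNA gene, with 5.8 and -4.34. Each was listed at 0 in 2 of the 4 libraries, and their longest transcripts have 123, 134 and 93 bases. Of the 41 opposite genes 26 have a longest transcript under 300 bases, as do 355 of all genes in scope. The 3 leading protein-coding genes were *Eif4ebp3*, a translation repressor gene with 1.67 and -2.13, *Gm42791* with 3.06 and -1.63, and *AC163703.1* with 2.45 and -1.26.

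*Dnmt3a* and *Isg15* differed in direction between MEFs and tissues, again untested. *Dnmt3a* had ratios of 1.68 and 2.07 in MEFs and 1.17 in heart but -1.99 in liver, so its whole-gene RNA was below WT only in the KO-labelled liver library among these 4 pairs. *Isg15*, an interferon-stimulated gene, had ratios of -1.33 and -1.26 in MEFs but 1.63 in heart and 3.35 in liver.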

How the results depend on the processing

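The counts of 136 higher and 93 lower genes depended on the threshold and on how low values were treated. A pseudocount of 0.1 FPKM gave 316 and 250 genes and 145 opposite ones, a mean of at least 5 FPKM gave 81 and 45, a 1.5-fold threshold 425 and 353, and a 4-fold threshold 19 and 7. Centring on the median gave 126 and 98, upper quartile scaling 124 and 101, and protein-coding genes 114 and 78, all within 1.5 times. Dropping the 1 FPKM filter gave 136 and 93 again. It could not do otherwise, since 2-fold on FPKM + 1 needs at least 1 FPKM in the higher library. After seeing the data, at least 20 estimated reads gave 121 and 83, and a longest transcript of at least 300 bases left 14 of the 41 opposite genes. Centring moved the log2 ratios by 0.031 and 0.007. The 15 leading genes of each direction stayed called with the other pseudocount, with centring and with upper quartile scaling. This was no test of them, since a smaller pseudocount only widens a ratio. The genes were also picked for large ratios, which centring and upper quartile scaling moved little. Of the 30, 15 passed the 4-fold threshold. Of 310 counts for lists, 242 stayed within 1.5 times. Only counts with a call under the main rule were compared, so lists with 0 calls were not among them. Dropping the filter cannot change these counts either. A mean of at least 5 FPKM left fewer members to call: the mesothelial markers kept 3 calls of 5 members, the Hox genes of groups 10 to 13 had 0 calls of 3, those of groups 1 to 5 had 1 of 1, the head and trunk factors 3 higher and 0 lower of 13, the kidney markers 0 of 1, and the DNMT3A targets 4 higher and 2 lower of 166. A fit of genotype with treatment as a second term was not made, since the 2 pairs are not known to be separate embryos.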

Other observations

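The called genes were spread over the genome. The share of higher genes in scope ran from 0.345% on chromosome 11 to 1.87% on chromosome 16, and that of lower genes from 0.128% on chromosome 8 to 1.32% on chromosome 13. There was no run of 3 or more neighbouring genes in scope called in the same direction.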
